A study of Mus musculus with 12 samples.

Results

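Transcripts of 10 transcription factors that mark T cell states were followed in the T cells of PyMT breast tumors: Tox, Tcf7, Lef1, Satb1, Id2, Id3, Eomes, Tbx21, Bach2 and Bcl6. The genes were taken by name, with earlier results of these data known, and all 10 were among the 31053 genes of the matrix. All mice carried PyMT, a viral oncogene that the MMTV promoter expresses in mammary epithelium, and developed spontaneous breast cancer. The study used 3 samples from adult PyMT-PAR2 WT mice and 3 from adult PyMT-PAR2 G37I mice, whose PAR2 receptor resists cleavage by coagulation factor Xa, both on a B6 background and neither treated. Beads against CD4 and CD8 were used to enrich T cells from tumors of medium size, which were kept frozen, thawed and sequenced on the 10x Genomics platform, which counts transcripts as unique molecular identifiers (UMIs). The 6 samples stood in 1 matrix whose barcodes carried no sample name, so genotypes could not be compared, the matrix counted as 1 sample, and no p-value was computed.

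Chronically stimulated CD8+ T cells pass from stem-like or progenitor cells to terminally exhausted cells, and the inhibitory receptors PD-1 (Pdcd1) and TIM-3 (Havcr2) are gained along the way. TCF-1 (Tcf7), LEF-1, SATB1, BACH2 and ID3 are known from naive and memory-precursor or progenitor cells, TOX from the exhaustion program, and ID2, T-bet (Tbx21) and EOMES from effector and cytotoxic lineages. BCL6 is the lead factor of follicular helper T cells.

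CD8 cells were defined by at least 1 Cd8a UMI, no Cd4 UMI and under 10% mitochondrial UMIs, and were split by whether Pdcd1 and Havcr2 were at 0 or at 1 UMI or more. Of 23101 barcodes 19528 cells were kept, and 14157 of these were CD8 cells: 6845 Pdcd1-Havcr2-, 6619 Pdcd1+Havcr2-, 145 Pdcd1-Havcr2+ and 548 Pdcd1+Havcr2+ cells. Cells with a Cd3 transcript and no Cd8a gave 629 CD4 cells, 100 Foxp3 cells and 37 Trdc cells. The barcode list ran through the alphabet 6 times, and each pass, here called a run, held 1854 to 5132 kept cells with a median of 4024 to 6525 UMIs. The filters took most from runs 4 and 5, which kept 2046 of 3554 and 1854 of 3468 barcodes, while run 2 kept all 2344. Runs are not tied to samples or genotypes, 51 barcodes occurred in more than 1 run, and values per run are given as a description of the spread. Levels are UMIs per 1000000 UMIs (CPM) of the pooled cells with an exact 95% Poisson interval, which covers counting error only. The summed T cell markers Cd3d, Cd3e, Cd3g, Trac and Trbc2 reached 4338 CPM in Pdcd1-Havcr2- and 6065 CPM in Pdcd1+Havcr2+ cells. Another 802 cells of the matrix were macrophages, defined by C1qa and by the absence of Cd3, Cd8a and Trdc UMIs. No cell was removed as a doublet.

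Lef1 and Satb1 had the most similar profiles among the 45 pairs of members, so the 250 bases before a RefSeq start of each are shown on GRCm38.p6. Lef1 lies on the plus strand at chr3:131110471-131224356, and the window, upstream of the gene, was chr3:131110047-131110296. Satb1 lies on the minus strand at chr17:51736187-51833290, and the window, which ends at the gene's start, was chr17:51833291-51833540. Capitals mark GGTGTG, the core bound by T-box factors such as T-bet and EOMES, here found on the reverse strand of the Satb1 window.
Lef1: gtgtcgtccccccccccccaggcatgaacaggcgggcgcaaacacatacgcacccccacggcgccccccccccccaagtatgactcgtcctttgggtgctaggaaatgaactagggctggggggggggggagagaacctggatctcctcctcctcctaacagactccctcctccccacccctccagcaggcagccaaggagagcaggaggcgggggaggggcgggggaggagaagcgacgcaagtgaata
Satb1: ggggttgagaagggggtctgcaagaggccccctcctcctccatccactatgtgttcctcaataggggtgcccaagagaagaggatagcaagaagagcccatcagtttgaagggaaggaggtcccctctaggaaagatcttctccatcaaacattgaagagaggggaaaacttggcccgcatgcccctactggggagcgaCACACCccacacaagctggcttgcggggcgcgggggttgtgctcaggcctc
Both strands of such windows were searched in the 9 members that matched (Tox was not matched) and in 27025 promoters of the same length. GGTGTG occurred in 3 of 9 members and in 16.2% of all promoters. CTTTGA, the core read by TCF-1 and LEF-1, occurred in 1 of 9 members and in 14.1% of all promoters. The E-box CANNTG, where proteins held back by ID2 and ID3 bind, occurred in 5 of 9 members and in 66.0% of all promoters.

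Tox (chr4:6686353-6991557, minus strand) was higher in Pdcd1+Havcr2+ than in Pdcd1-Havcr2- CD8 cells, and its runs did not overlap between these groups. Over the 6 runs the lowest, median and highest Tox level was 57.8, 74.5 and 162 CPM in Pdcd1-Havcr2- cells. It was 164, 233 and 283 CPM in Pdcd1+Havcr2- cells. It was 218, 305 and 350 CPM in Pdcd1+Havcr2+ cells. The highest Pdcd1-Havcr2- value came from run 3, which also held 451 of the 802 macrophages, and the other 5 runs lay at or below 79.8 CPM. Macrophages held Tox at 0.616 CPM, and without cells that held C1qa, Epcam, Krt8 or Krt18 the highest Pdcd1-Havcr2- run stood at 176 CPM. Pooled over runs, Tox was 3.80-fold higher (95% interval 3.56 to 4.06) in Pdcd1+Havcr2+ than in Pdcd1-Havcr2- cells, higher in 6 of 6 runs. Between Pdcd1+Havcr2+ and Pdcd1+Havcr2- cells the ratio was 1.36 (1.28 to 1.44), again higher in 6 of 6 runs, although the runs of these groups overlapped.

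Tcf7 (chr11:52252371-52283014, minus strand) and Lef1, the genes of the related factors TCF-1 and LEF-1, were both lower in Pdcd1+Havcr2+ cells but by different courses. Tcf7 had a lowest, median and highest run level of 69.8, 110 and 134 CPM in Pdcd1-Havcr2- cells. These were 56.6, 69.3 and 111 CPM in Pdcd1+Havcr2- cells. They were 19.5, 52.4 and 84.2 CPM in Pdcd1+Havcr2+ cells. Tcf7 was thus lower at each step, by 1.45-fold (1.38 to 1.52) in Pdcd1+Havcr2- and by 2.49-fold (2.15 to 2.90) in Pdcd1+Havcr2+ against Pdcd1-Havcr2- cells, in 6 of 6 runs each, with overlapping runs. The long RNA Gm26551 is annotated within Tcf7 on the same strand and had 669 UMIs in CD8 cells against 7798 of Tcf7. The overlap may have affected the count of Tcf7, which was not tested. Lef1 had 44.5, 62.1 and 108 CPM in Pdcd1-Havcr2- cells. It had 13.6, 18.4 and 22.3 CPM in Pdcd1+Havcr2- cells, below every Pdcd1-Havcr2- run. In Pdcd1+Havcr2+ cells it had 8.78, 23.5 and 36.97 CPM, also below every Pdcd1-Havcr2- run. Lef1 was 3.74-fold lower (3.44 to 4.08) in Pdcd1+Havcr2- and 2.96-fold lower (2.41 to 3.67) in Pdcd1+Havcr2+ cells, and between the latter groups 3 runs were higher and 3 lower.

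Satb1, a chromatin organizer of developing and naive T cells, showed the lowest ratio of the 10 genes between Pdcd1+Havcr2+ and Pdcd1-Havcr2- cells. Its lowest, median and highest run level was 179, 296 and 415 CPM in Pdcd1-Havcr2- cells. It was 34.5, 55.2 and 129 CPM in Pdcd1+Havcr2- cells. It was 25.4, 46.9 and 87.0 CPM in Pdcd1+Havcr2+ cells, and neither Pdcd1+ group overlapped the Pdcd1-Havcr2- runs. Satb1 was 6.66-fold lower (5.77 to 7.74) in Pdcd1+Havcr2+ than in Pdcd1-Havcr2- cells, past 2-fold in 6 of 6 runs. With Pdcd1 and Havcr2 gated at 2 UMIs or more, which left 86 Pdcd1+Havcr2+ cells, Satb1 was 23.8-fold lower on the CPM + 1 scale. With cells under 5% mitochondrial UMIs, the other end of the settings, Satb1 was 5.58-fold lower. Tumor cell transcripts moved with it: Epcam, Krt8 and Krt18 summed to 293.5 CPM in Pdcd1-Havcr2- cells (48.7 to 507 over runs) and 38.2 CPM in Pdcd1+Havcr2+ cells (17.6 to 65.4), with none of the 3 at 0. Without any cell that held Epcam, Krt8, Krt18 or C1qa, Satb1 stood at 299 CPM in the 5064 remaining Pdcd1-Havcr2- cells and at 39.3 CPM in the 382 remaining Pdcd1+Havcr2+ cells.

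Bach2 (chr4:32238804-32586108, plus strand), which restrains effector genes in T cells, was rarer. Its lowest, median and highest run level was 16.6, 24.4 and 28.8 CPM in Pdcd1-Havcr2- cells and 5.02, 9.77 and 16.8 CPM in Pdcd1+Havcr2+ cells. The pooled level was 2.31-fold lower (1.70 to 3.21), in 6 of 6 runs, and the highest Pdcd1+Havcr2+ run reached just into the range of the other group. With cells thinned to 2000 UMIs before they were split, which left 127 Pdcd1+Havcr2+ cells, Bach2 was 4.02-fold lower on the CPM + 1 scale. With CPM + 10, the other end of the settings, Bach2 was 1.66-fold lower.

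Id2 (chr12:25093799-25097140, minus strand) and Id3 (chr4:136143497-136145755, plus strand), inhibitors of E proteins, went in opposite directions. Id2 had 304, 412 and 648 CPM as lowest, median and highest run in Pdcd1-Havcr2- cells. It had 509, 723 and 1092 CPM in Pdcd1+Havcr2+ cells, with overlapping runs, and was 1.81-fold higher (1.74 to 1.88) in 6 of 6 runs. Id3 had 33.0, 42.9 and 51.8 CPM in Pdcd1-Havcr2- cells. It had 1.95, 17.6 and 25.3 CPM in Pdcd1+Havcr2+ cells, below every run of the other group, and was 2.92-fold lower (2.28 to 3.80). With gates at 2 UMIs, which left 86 Pdcd1+Havcr2+ cells, it was 5.81-fold lower on the CPM + 1 scale. With CPM + 10, the other end of the settings, Id3 was 2.17-fold lower. Against Pdcd1+Havcr2- cells Id3 was 1.96-fold lower (1.52 to 2.55) in Pdcd1+Havcr2+ cells, in 6 of 6 runs.

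The T-box genes Eomes (chr9:118478212-118486132, plus strand) and Tbx21 (chr11:97098071-97115331, minus strand) differed less between the groups than between runs. Eomes ran from 60.0 to 183 CPM (median 78.9) in Pdcd1-Havcr2- and from 61.8 to 228 CPM (median 109) in Pdcd1+Havcr2+ cells. Its pooled ratio was 1.11 (1.01 to 1.23), with 5 runs higher and 1 lower. Run 4 held the highest Eomes level in all 3 groups, and run 3 the lowest. Tbx21 ran from 39.5 to 68.1 CPM in Pdcd1-Havcr2- and from 47.5 to 81.4 CPM in Pdcd1+Havcr2+ cells, with a ratio of 1.16 (1.02 to 1.32), higher in 6 of 6 runs. Tbx21 was highest in Pdcd1+Havcr2- cells, from 60.1 to 87.8 CPM, and Pdcd1+Havcr2+ cells were lower than these in 6 of 6 runs (ratio 0.856, 0.752 to 0.972). Bcl6 (chr16:23965052-23988852, minus strand) ran from 10.3 to 25.9 CPM in Pdcd1-Havcr2- and from 2.21 to 28.8 CPM in Pdcd1+Havcr2+ cells, with a ratio of 0.692 (0.516 to 0.910).

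**Figure D1:**
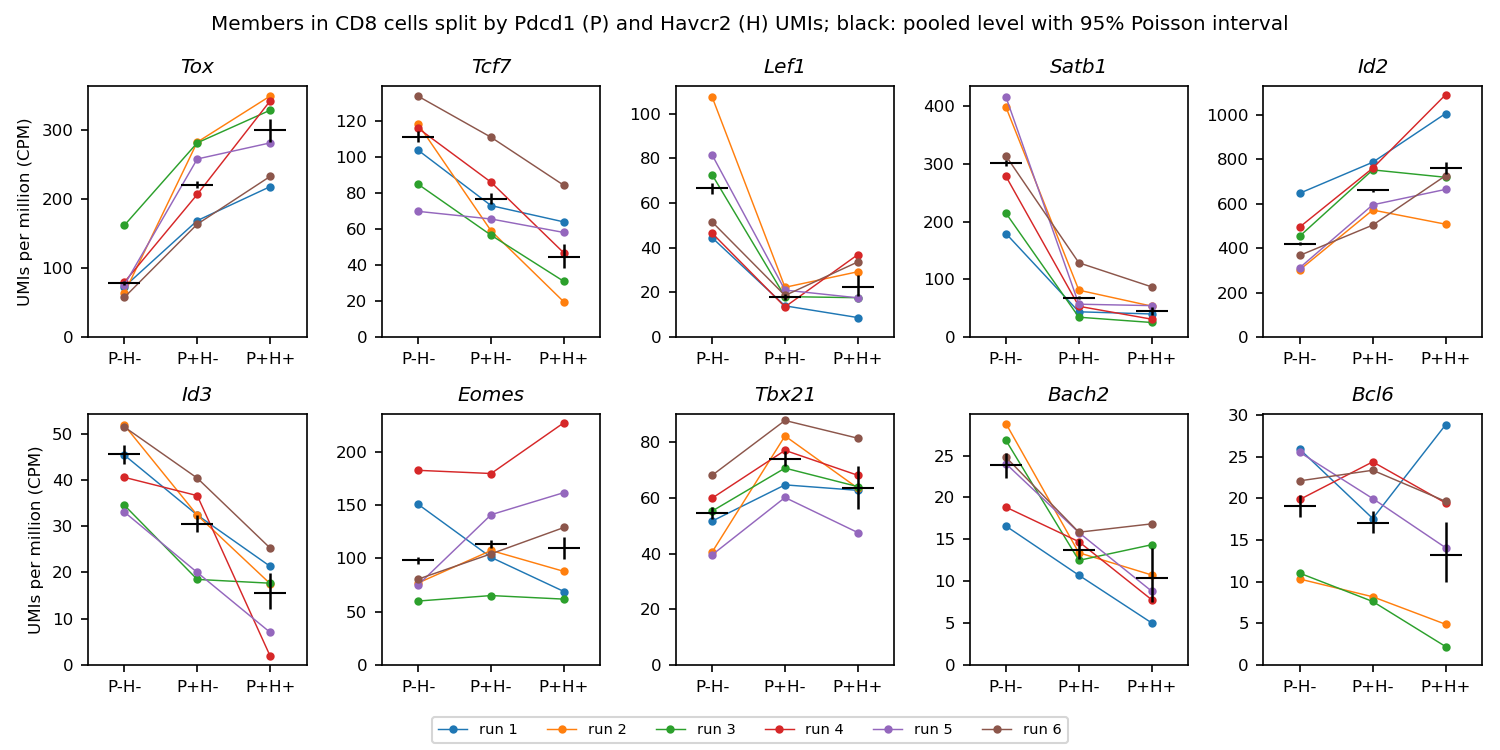
Level of each of the 10 genes (vertical axis, CPM) in Pdcd1-Havcr2-, Pdcd1+Havcr2- and Pdcd1+Havcr2+ CD8 cells (P and H on the horizontal axis), with 1 colored line per run and the pooled level with its 95% Poisson interval in black. Tox runs climb from 57.8 to 162 up to 218 to 350 CPM, Satb1 and Lef1 runs drop mainly at the first step, and Eomes lines do not share a direction.

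A change was called where log2(CPM + 1) differed by 2-fold or more, among genes with a mean of at least 10 CPM over the groups compared. In Pdcd1+Havcr2+ over Pdcd1-Havcr2- CD8 cells 1 of 10 members was higher (Tox) against 2.93% of all 7029 genes tested, and 5 of 10 were lower (Tcf7, Lef1, Satb1, Id3 and Bach2) against 1.25%. The median log2 fold was -0.82 for the members and 0.19 for all genes tested. Because the members were chosen with earlier results of these data known, these counts and medians are descriptions. Bach2 missed 2-fold with a pseudocount of 10 and without Mki67 cells. In Pdcd1+Havcr2- over Pdcd1-Havcr2- cells 1 member was higher (Tox, 2.80-fold, 2.69 to 2.92) against 0.694%, and 2 were lower (Lef1 and Satb1, by 4.38-fold for Satb1) against 1.07%. The fold of Tox in this pair came to 1.87 when cells were thinned to 2000 UMIs before they were split. In Pdcd1+Havcr2+ over Pdcd1+Havcr2- cells 0 members were higher against 1.23% of all genes, and 0 were lower against 0.141%. Id3 passed 2-fold downward there without run 1, without run 3, with a mean over cells, with Cd3 and no C1qa, and without C1qa, Epcam, Krt8 or Krt18 cells. Satb1 and Id3 passed with gates at 2 UMIs, and Satb1, Id3 and Bach2 with thinning before the split.

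**Figure D2:**
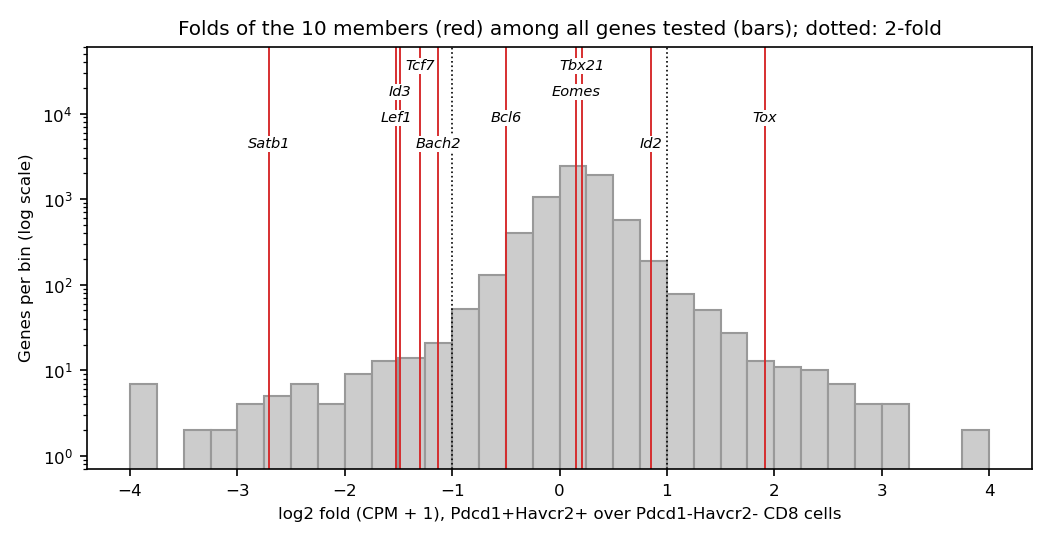
Distribution of log2 folds (horizontal axis, CPM + 1) of all 7029 genes tested in Pdcd1+Havcr2+ over Pdcd1-Havcr2- CD8 cells (bars, number of genes on a log axis, with genes beyond 4 counted in the end bars) and the folds of the 10 members (red lines). Satb1, Lef1, Id3, Tcf7 and Bach2 lie left of the dotted 2-fold line, Tox lies right of the other, and Id2 falls short of it.

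Other genes of the same program were read from lists. Of 30 other T cell transcription factors 26 were tested, and 7 were higher and 2 lower in Pdcd1+Havcr2+ than in Pdcd1-Havcr2- cells, with a median log2 fold of 0.53. The largest folds were those of Tox2, a relative of Tox (26.2 against 2.73 CPM, 9.57-fold), Maf (102 against 18.9 CPM, 5.40-fold) and Ikzf2, which encodes Helios (329 against 105 CPM, 3.13-fold). Macrophage markers summed to 1129 CPM in Pdcd1+Havcr2+ and 194 CPM in Pdcd1-Havcr2- cells. Maf also passed 2-fold upward in Pdcd1-Havcr2+, CD4 and Foxp3 cells, which held more macrophage transcripts. It passed 2-fold upward as well in Pdcd1+Havcr2- over Pdcd1-Havcr2- cells, where macrophage markers summed to 122 against 194 CPM. A share of macrophage transcripts in the Maf fold was not tested. The smallest were those of Klf3 (34.8 against 129 CPM, 3.72-fold lower), Klf2, which maintains S1pr1 (133 against 344 CPM, 2.59-fold lower), and Myb (25.7 against 37.7 CPM, 1.47-fold lower). Of 10 progenitor genes 9 were tested, with 0 higher and 4 lower, among them the interleukin-7 receptor gene Il7r and S1pr1, a receptor of recirculating lymphocytes. Slamf6, a surface marker of progenitor exhausted cells, did not pass 2-fold (35.5 against 23.6 CPM). Of 10 terminal exhaustion genes 9 were tested, with 5 higher (Lag3, Entpd1, Cd38, Ctla4 and Tnfrsf9) and 0 lower. Beside the counts of these lists, 2.93% of all 7029 genes tested were higher and 1.25% lower. Lag3, Entpd1 and Cd38 were also the 3 terminal genes higher in Pdcd1-Havcr2+ over Pdcd1-Havcr2- cells, where 13.9% of all genes were higher. Lag3, Ctla4 and Tnfrsf9 were those higher in Pdcd1+Havcr2- over Pdcd1-Havcr2- cells, where 0.694% of all genes were higher.

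The same genes were followed by the number of Pdcd1 UMIs after every cell was thinned to 2000 UMIs, which left 13819 CD8 cells. The share of cells with a Tox UMI was 19.8% at 0 Pdcd1 UMIs (9009 cells), 36.4% at 1 (2701 cells), 39.4% at 2 (1235 cells) and 40.6% at 3 or more (874 cells). Most of the difference in Tox thus lay between 0 and 1 UMI, and the exact intervals at 2 and at 3 or more overlapped. Satb1 went from 25.2% to 6.74%, 4.29% and 4.12%, and Lef1 from 7.70% to 2.33%, 1.70% and 1.60%, with the same early drop. Tcf7 declined more evenly, from 17.2% to 12.6%, 8.02% and 6.75%. Id2 went from 54.2% to 63.3%, 65.7% and 71.5%. Eomes stayed between 16.6% and 19.1%, Tbx21 between 11.2% and 15.4%, and Bcl6 between 2.92% and 3.34%. For comparison, 0 of 706 macrophages (median 16420 UMIs before thinning, against 4604 to 5500 in the 4 CD8 groups) held a Tox, Tcf7 or Tbx21 UMI at this depth, which allows a share of up to 0.425%, and 0.567% held a Satb1 UMI. Because these macrophages were chosen to lack Cd3, Cd8a and Trdc UMIs, such shares may understate the background. Id2 was held by 59.5% of macrophages, Id3 by 4.67%, Bach2 by 2.27% and Bcl6 by 3.82%. In Pdcd1+Havcr2+ cells the shares of Id3 (1.47%), Bach2 (1.83%) and Bcl6 (2.20%) lay below those of macrophages. C1qa cells of the study's CD11c-selected samples also held Id3 (31.3 CPM), Bach2 (14.65 CPM) and Bcl6 (21.0 CPM). Macrophage shares therefore cannot serve as a measure of background for these 3 genes. Whether their levels in Pdcd1+Havcr2+ cells are background was not tested. Without cells that held C1qa, Epcam, Krt8 or Krt18, Id2 stood at 844 CPM in Pdcd1+Havcr2+ against 438 CPM in Pdcd1-Havcr2- cells, and Id3 at 12.5 against 45.1 CPM. Bach2 stood at 9.83 against 23.0 CPM and Bcl6 at 15.5 against 20.1 CPM in the same cells.

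**Figure D3:**
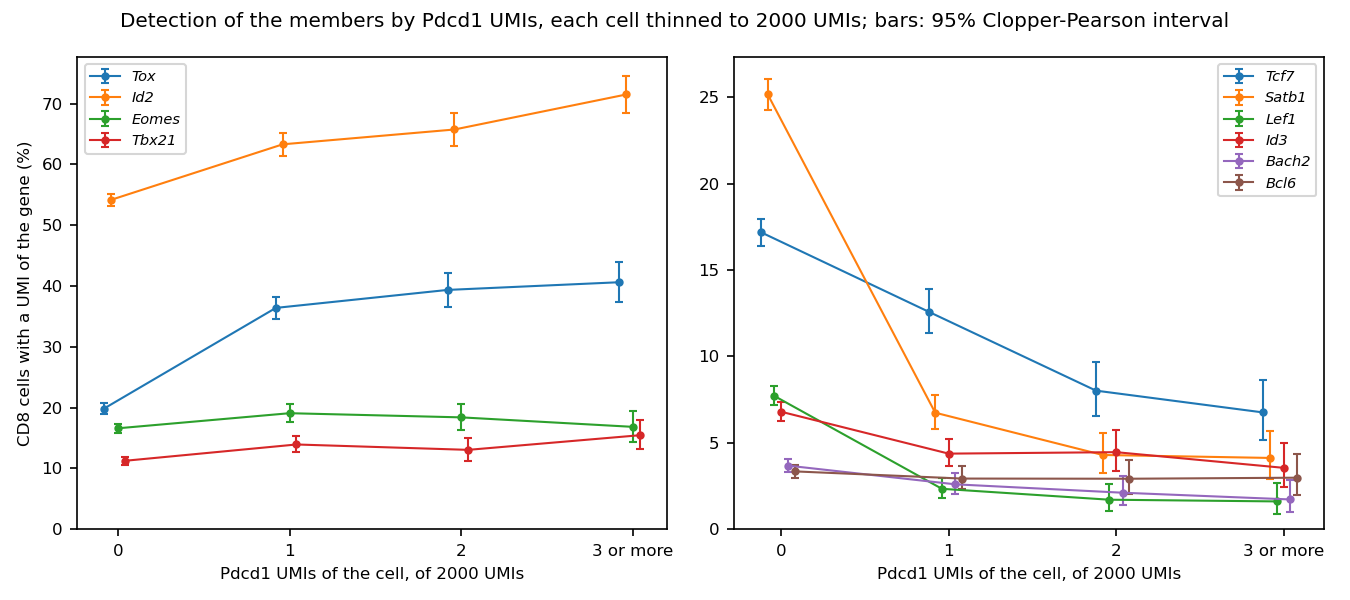
Share of CD8 cells with at least 1 UMI of each gene (vertical axis, percent) by the number of Pdcd1 UMIs in the cell (horizontal axis), each cell thinned to 2000 UMIs, with 95% Clopper-Pearson intervals. Tox and Id2 climb and Tcf7, Satb1 and Lef1 decline with Pdcd1, and Satb1 drops from 25.2% to 6.74% at the first UMI.

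Mki67, a marker of cycling cells, was found in 9.82% of Pdcd1-Havcr2- and in 21.9% of Pdcd1+Havcr2+ cells. CD8 cells with Mki67 were also deeper, with a median of 9081.5 UMIs against 4671 without, and the levels below were not thinned to equal depth. Tox stood at 147 CPM in CD8 cells with and 155 CPM in those without Mki67, and Tcf7 at 89.9 and 91.9 CPM. Pooled levels were lower with Mki67, with Poisson intervals that did not overlap, for Bach2 (13.6 against 19.8 CPM), Satb1 (155 against 188 CPM), Id2 (465 against 569 CPM), Eomes (93.3 against 108 CPM) and Bcl6 (14.1 against 18.8 CPM). These intervals cover counting error only, and the ranges over runs overlapped for each of these genes. The share of all genes that were lower with Mki67 was not computed, so no result about the members is drawn from this.

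Whether the factors were found in the same cells was read at 2000 UMIs per cell. Among CD8 cells with Tcf7, 17.4% also held Tox (355 of 2046 cells), and among those without Tcf7 27.7% did (3256 of 11773), lower with Tcf7 in 6 of 6 runs. The order was the same within Pdcd1-Havcr2- cells (11.7% against 16.9%) and within Pdcd1+Havcr2- cells (25.6% against 36.0%), in 5 of 6 runs each. Cells with both Tcf7 and Tox made up 2.18% of Pdcd1-Havcr2-, 3.06% of Pdcd1+Havcr2- and 2.02% of Pdcd1+Havcr2+ cells. Cells with Tcf7 and no Tox UMI made up 16.3%, 8.89% and 3.49% of these groups, and cells with Tox and no Tcf7 UMI 13.8%, 31.7% and 43.5%. A gene at 0 among 2000 UMIs may still be transcribed, and 51.0% of Pdcd1+Havcr2+ cells showed neither.

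Tox was also rarer in cells with Satb1. In Pdcd1-Havcr2- cells 6.47% of those with Satb1 held Tox against 20.1% of those without, and in Pdcd1+Havcr2- cells 21.8% against 35.8%, lower in 6 of 6 runs in both groups. Id2 was found in 40.6% of Pdcd1-Havcr2- cells with Satb1 and in 56.1% of those without. Lef1 and Satb1 went together: 56.7% of Pdcd1-Havcr2- cells with Lef1 held Satb1 against 27.9% of those without, higher in 6 of 6 runs. In Pdcd1+Havcr2- cells the shares were 21.6% and 6.99% (5 of 6 runs), but 6.76% and 5.67% when cells were split after thinning. Tcf7 was found in 28.0% of Pdcd1-Havcr2- cells with Bach2 and in 18.1% of those without (6 of 6 runs). It was found in 19.9% of Pdcd1+Havcr2- cells with Id3 and in 11.5% of those without (6 of 6 runs). Eomes went with Tox: 42.2% of Pdcd1+Havcr2- cells with Eomes held Tox against 33.1% of those without, in 6 of 6 runs. Tbx21, the other T-box gene, was found in 11.2% of Pdcd1+Havcr2- cells with Eomes and in 14.1% of those without, lower in 6 of 6 runs.

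**Figure D4:**
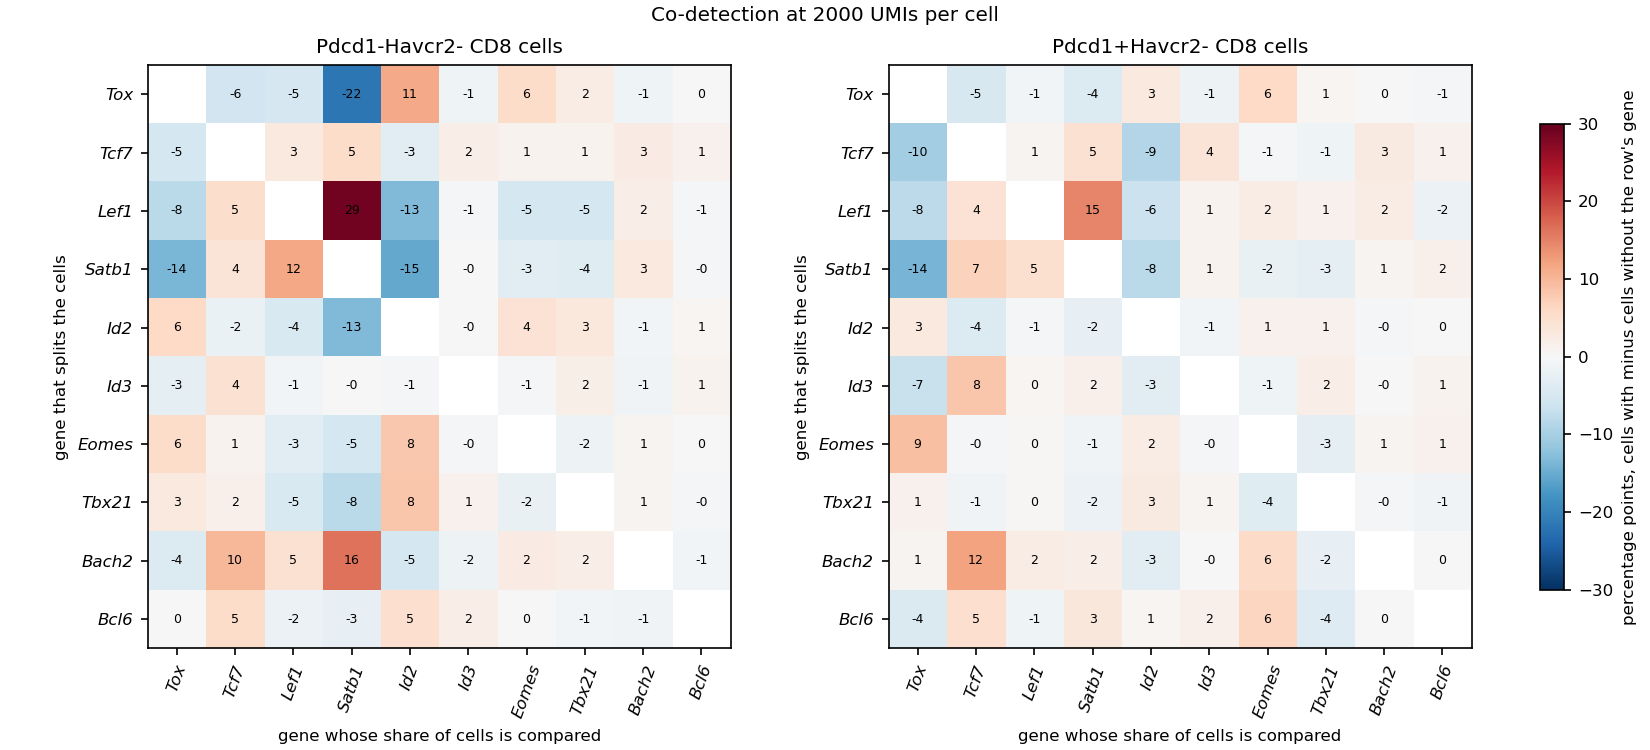
Difference in percentage points between cells with and cells without the gene named at the left, in the share that holds the gene named at the bottom, at 2000 UMIs per cell, in Pdcd1-Havcr2- (left) and Pdcd1+Havcr2- (right) CD8 cells. Red cells mark genes found together (Lef1 and Satb1, Bach2 and Tcf7) and blue cells genes found apart (Satb1 and Tox, Satb1 and Id2).

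The 145 Pdcd1-Havcr2+ cells were mixed with macrophage transcripts. The 6 macrophage markers summed to 20824 CPM there (0 to 31341 over runs), against 194 CPM in Pdcd1-Havcr2-, 1129 CPM in Pdcd1+Havcr2+ cells and 39417 CPM in macrophages, with no marker at 0 in the pooled group. In Pdcd1-Havcr2+ over Pdcd1-Havcr2- cells 0 members were higher against 13.9% of all genes, and 3 were lower (Tcf7, Lef1 and Satb1) against 3.16%. In the 88 Pdcd1-Havcr2+ cells without C1qa, Epcam, Krt8 or Krt18, Tox stood at 212 CPM (172 to 260), Tcf7 at 58.8 CPM (38.4 to 86.1) and Satb1 at 63.3 CPM (42.0 to 91.4). Tox then passed 2-fold upward over Pdcd1-Havcr2- cells gated alike (78.3 CPM). Tcf7 no longer passed 2-fold downward there (fold 0.523 on the CPM + 1 scale).

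CD4 cells held little Eomes. This gene, a factor of cytotoxic cells, ran from 1.88 to 21.1 CPM in CD4 cells and from 60.6 to 184 CPM in all CD8 cells, without overlap, and was 10.6-fold lower (7.62 to 15.2). In CD4 over CD8 cells 0 members were higher against 7.91% of all genes, and 2 were lower (Tox, 2.66-fold, and Eomes) against 1.98%. Run 1 gave 403 of the 629 CD4 cells, and without it 6 members were lower (Lef1, Satb1, Id3 and Tbx21 also). Macrophage markers summed to 7212 CPM in CD4 cells (876 to 30651 over runs). In the 484 CD4 cells without C1qa, Epcam, Krt8 or Krt18, Tox stood at 72.7 CPM (61.7 to 85.2), Tcf7 at 167 CPM (150 to 185) and Eomes at 14.6 CPM (9.95 to 20.8). Bcl6 stood at 30.3 CPM (24.9 to 36.6) in CD4 and 17.9 CPM in CD8 cells, higher in 5 of 6 runs.

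The 100 Foxp3 cells, 3 to 41 per run, carried the transcript of the regulatory T cell factor and held 0 Eomes UMIs, which allows up to 4.80 CPM. In Foxp3 over CD8 cells 1 member was higher (Id2) against 10.7% of all genes, and 4 were lower (Tcf7, Satb1, Eomes and Tbx21) against 5.19%. Macrophage markers summed to 2473 CPM in Foxp3 cells (0 to 28665 over runs) and to 532 CPM in CD8 cells. Id2 had 617, 1221 and 2065 CPM as lowest, median and highest run in Foxp3 cells and 418 to 736 CPM in CD8 cells, with overlapping runs and a ratio of 2.56 (2.40 to 2.74), higher in 6 of 6 runs. In the 48 Foxp3 cells without C1qa, Epcam, Krt8 or Krt18 it stood at 1091 CPM (977 to 1214), and the fold over CD8 cells gated alike was 1.93. Tcf7 had 20 UMIs in the 100 Foxp3 cells, or 32.0 CPM (19.5 to 49.4), with a highest run of 144 CPM, and Tox stood at 179 CPM (148 to 216). The 37 Trdc cells held a UMI of Trdc, the T cell receptor delta constant gene, and were too few for values per run. They also held the alpha and beta constant genes Trac (422 CPM) and Trbc2 (1072 CPM). Of the gamma constant genes, Tcrg-C2 was lower than in all CD8 cells (43.3 against 133 CPM) and Tcrg-C1 higher (39.4 against 17.1 CPM). In Trdc over CD8 cells 0 members were higher against 11.8% and 0 lower against 5.53%. These counts turned on few cells: 1 to 3 members were higher in several settings, always with Satb1 among them, and 4 were lower without run 2, which held 17 of the 37 cells. Satb1 stood at 319 CPM (253 to 397) and Tcf7 at 126 CPM (86.3 to 178) there. Epcam, Krt8 and Krt18 summed to 3830 CPM in Trdc cells. In the 25 Trdc cells without these transcripts and C1qa, Satb1 stood at 482.5 CPM (373 to 614) and Tcf7 at 204.7 CPM (136 to 296), and both passed 2-fold over CD8 cells gated alike.

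Across the 7 classes, Tox was highest in Pdcd1+Havcr2+ cells, followed by Pdcd1+Havcr2- and Foxp3 cells, and only the intervals of Foxp3, Pdcd1-Havcr2+, Trdc and Pdcd1-Havcr2- cells overlapped with their neighbors. Tcf7 was highest in Trdc, CD4 and Pdcd1-Havcr2- cells, whose intervals overlapped, but without C1qa, Epcam, Krt8 or Krt18 cells the CD4 interval lay above that of Pdcd1-Havcr2- cells (113 CPM, 109 to 117). It was lowest in Pdcd1+Havcr2+, Foxp3 and Pdcd1-Havcr2+ cells, which also overlapped. Without C1qa, Epcam, Krt8 or Krt18 cells, Tcf7 stood at 58.8 CPM (38.4 to 86.1) in Pdcd1-Havcr2+, 51.8 CPM in Pdcd1+Havcr2+ and 26.0 CPM in Foxp3 cells. Tox then stood at 212 CPM (172 to 260) in Pdcd1-Havcr2+, 216 CPM in Pdcd1+Havcr2- and 169 CPM in Foxp3 cells. Satb1 was highest in Trdc and Pdcd1-Havcr2- cells, and Id2 in Foxp3 cells. The intervals of neighboring classes overlapped throughout for Lef1, Tbx21, Bach2 and Bcl6.

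**Figure D5:**
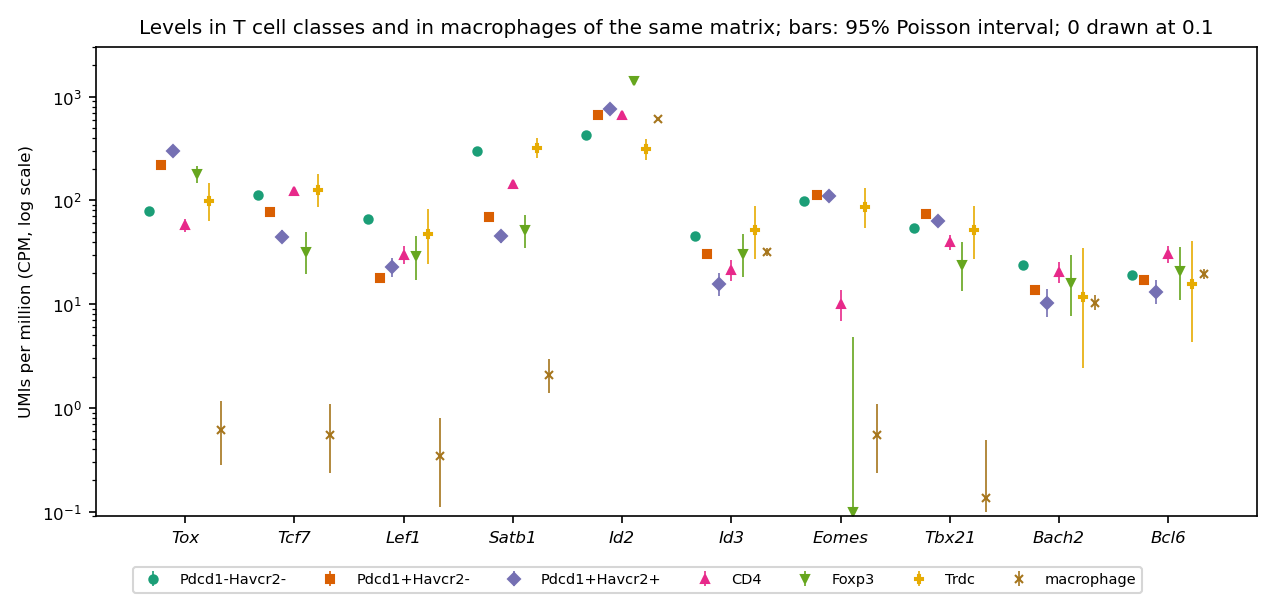
Level of each gene (vertical axis, CPM on a log scale) in 6 T cell classes and in macrophages of the same matrix, with 95% Poisson intervals and 0 drawn at 0.1. Tox, Tcf7, Lef1, Eomes and Tbx21 lie below 1 CPM in macrophages, Id2, Id3, Bach2 and Bcl6 lie within the range of the T cells, and Eomes is at 0 in Foxp3 cells.

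The genes most like each member were ranked by Pearson correlation of log2(CPM + 10) over 28 points, each a class in a run with at least 20 cells, centred within run, among 8318 genes. The points share runs, depth and gates, so the values are descriptions. Lef1 was most like Satb1 (r = 0.86), followed by Zcwpw1 (0.79) and Tdrp (0.77). Satb1 was most like Chd7 (0.90), Cldn7 (0.87) and Plet1 (0.86), and Cldn7 and Plet1 are epithelial genes. Eomes was most like the cytotoxic gene Prf1 (0.95), the gate gene Cd8a (0.94) and Nkg7 (0.94), and Tbx21 most like Nbeal2 (0.96) and Atad2 (0.93). Tox was most like Kansl1 (0.93), Prex1 (0.92) and Serpina3g (0.91). Tcf7 was most like Nsg2 (0.83), Klhl25 (0.80) and Ssh2 (0.79). Id2 was most like Adprh (0.88), H2-D1 (0.87) and Glrx (0.85). Id3 came with Klra6, Klra3 and Lcn4 (0.72 each), Bach2 with Larp1b (0.75), Slc17a9 (0.75) and Fyttd1 (0.74), and Bcl6 with Nln (0.84), Pcyox1 (0.83) and Apobr (0.82). Between members, r was 0.86 for Lef1 and Satb1, 0.81 for Eomes and Tbx21, and -0.80 for Satb1 and Id2.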

How the data were processed

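Transcripts of single cells were measured in 6 samples of CD4/CD8-selected and 6 of CD11c-selected cells, in 3 samples per genotype. The authors deposited raw UMI counts, 1 sparse matrix for each of the selections. Cell Ranger 3.0.2 and the mouse build mm10 are named in the submitters' processing notes. Cells with at least 200 genes and under 10% mitochondrial UMIs were kept, which left out 295 and 3278 barcodes. No doublet caller was run. CD8 cells held Cd8a and no Cd4. CD4, Foxp3 and Trdc cells held a Cd3 gene and no Cd8a, and were split by Cd4, Foxp3 and Trdc. Macrophages held at least 2 C1qa UMIs and no Cd3, Cd8a or Trdc.

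UMIs were summed per class and divided by the class total. Kept UMIs per run were 13272316 to 29805886. Intervals were exact Poisson for levels, Clopper-Pearson for shares and conditional binomial for ratios, at 95%. They cover counting error only. Each matrix was 1 sample, so no difference was tested. Cells were thinned to 2000 UMIs without replacement (seed 1) for shares. Python 3.11.15, numpy 2.4.6, scipy 1.17.1 and pandas 2.3.3 were used, and the fold calls were checked on simulated counts. Gene positions came from GENCODE M21 on GRCm38 and promoters from RefSeq on GRCm38.p6.

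The members and lists were chosen with earlier results of these data known. All 10 members were named. Of the other factors, the 3 of largest and 3 of smallest fold among those tested were named, and the 3 genes most like each member. Alternatives were leaving out each run, a mean over cells, thinning before gating, stricter cell filters, gates and pseudocount, and leaving out cycling cells. Leaving out cells with macrophage or epithelial markers was chosen after seeing the data. Results that rest on some other genes are not reported here.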

Additional observations from a re-analysis of the deposited data

How the results depend on the processing

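No paired analysis was possible because the barcodes carry neither sample names nor replicate numbers. Classes were compared within runs instead. Of 1120 alternative folds of the members 278 moved beyond the counting interval. The 19 called folds changed direction in 0 of 304 alternatives, and 24 of the 51 folds not called did so in 71 alternatives. The single higher call in Pdcd1+Havcr2+ over Pdcd1-Havcr2- cells was kept in all 16 settings. In Pdcd1+Havcr2- over Pdcd1-Havcr2- cells the higher call was lost with thinning before gating (0). Lower calls in Pdcd1+Havcr2+ over Pdcd1+Havcr2- cells ranged from 0 to 1 over single runs left out, and were 1 with a mean over cells, with Cd3 and no C1qa and without macrophage or epithelial markers, 2 with gates at 2 UMIs and 3 with thinning. Higher calls in Pdcd1-Havcr2+ cells ranged from 0 to 2 over runs left out (2 without run 3), and were 1 with a mean over cells, with thinning and without other markers, and 2 with Cd3 and no C1qa and without the deepest 5% of cells. Lower calls there were 5 with thinning and 6 with gates at 2 UMIs. Lower calls in CD4 cells were 2 to 6 over runs left out, and the higher call in Foxp3 cells was lost without other markers (0). In Trdc cells higher calls ranged from 0 to 2 over runs left out, were 1 with a mean over cells, under 5% mitochondrial UMIs, without the deepest 5% and without Mki67 cells, 2 without other markers and 3 with thinning. Lower calls ranged from 0 to 4 over runs left out (4 without run 2), and were 1 without Mki67 cells. The causes were not tested. The Tox share was 8.47% with and 15.6% without Tcf7 at 1000 UMIs, 24.2% and 38.7% at 4000 UMIs, and ranged from 16.01% to 19.9% and from 25.1% to 30.3% over runs left out. Without Tcf7 it was 30.1% with gates on thinned UMIs. Depth limits Bach2, Bcl6 and Id3 in Pdcd1+Havcr2+ cells, which held 43, 55 and 65 UMIs there.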

Other observations

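The CD11c-selected matrix held 19 CD8 T cells, too few for a comparison, and 3 antigen-presenting classes in which some of the same factors were found. Id2, needed for dendritic cell development, stood at 716 CPM (710 to 722) in 6839 C1qa cells, at 1191 CPM (1160 to 1223) in 287 Xcr1 cells and at 1831 CPM (1767 to 1898) in 157 Ccr7 Fscn1 cells. Tcf7 stood at 85.6 CPM (72.0 to 101) and Satb1 at 57.1 CPM (46.1 to 69.8) in the Ccr7 Fscn1 cells, against 0.915 and 3.34 CPM in C1qa cells, while Lef1 was at 0 UMIs in the Ccr7 Fscn1 cells, which allows up to 1.82 CPM. Bcl6 stood at 34.3 CPM (29.2 to 40.1) in Xcr1 and 21.0 CPM (20.01 to 22.1) in C1qa cells. Tox stood at 0.0773 CPM in C1qa cells and at 0 UMIs in Xcr1 cells, which allows up to 0.644 CPM.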
